A study of Mus musculus with 8 samples.

Results

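Entries for microRNA genes were followed through mouse embryos made from Tet3-null and from wild-type oocytes. Of 23234 genes listed in each library, 611 carried a microRNA symbol (Mir or Mirlet followed by a digit). Of these, 104 had at least 1 FPKM in at least 2 of the 8 libraries and are described here. FPKM counts fragments relative to the length of the gene and the number mapped in that library. Of the other symbols, 411 were listed at 0 in all 8 libraries, 84 reached 1 FPKM in a single library and 12 stayed below 1 FPKM throughout. No symbol lay close to the limit: the second-highest value was 4.11 FPKM for Mir1946a, 7.81 for Mir546 and 8.97 for Mir17hg on the inside, and 0.0144 for Mir5114, 0.0143 for Mir294 and 0.00643 for Mir293 on the outside. The measured levels thus chose the members, and a member with values in 2 libraries of 1 group had to differ between groups.

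The 8 RNA-seq libraries fall into 4 groups of 2, which are Tet3-null blastocysts, wild-type blastocysts, Tet3-null 2-cell embryos and wild-type 2-cell embryos. Tet3-null oocytes came from CKO females with Zp3-Cre, a transgene driven by an oocyte promoter, and with a floxed and a null Tet3 allele (f/-). Wild-type oocytes came from f/f females, homozygous for the floxed allele, and the labels do not state whether these carried Cre. All females were superovulated, all oocytes were fertilized in vitro by CAST/EiJ sperm, and zygotes with 2 pronuclei were cultured in KSOM, so every embryo also received a paternal Tet3 allele. Blastocysts were pooled by 7 at 96 h and 2-cell embryos by 10 at 30 h after fertilization. Whole embryos were lysed directly, and cDNA was made with a SMARTer Ultra Low Input kit, amplified and sheared to about 150 bp before an unstranded library preparation. Whether replicate libraries stem from different females or different days is not said in the labels. The p-values thus rest on a spread between samples that may be technical. In pools of whole embryos, fewer cells of a type and less RNA per cell cannot be told apart.

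A microRNA is cut from a hairpin in a longer primary transcript, which is often the intron or exon of a host gene: Drosha and Dgcr8 release the hairpin in the nucleus, Dicer1 trims it to a duplex, and an Argonaute protein carries 1 strand to its targets. Bases 2 to 8 of that strand, the seed, choose most targets. In the mouse the oocyte is known to depend little on microRNAs, while the mir-290 family becomes the leading family of the embryo and of embryonic stem cells. Mature microRNAs and hairpins have no poly(A) tail, and the cDNA kit primes from poly(A) tails. Fragments that fall on a hairpin in such libraries can come from any transcript that holds its sequence, and the values below are therefore not levels of mature microRNAs.

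Mature sequences from RefSeq (GRCm38.p6) were found for 85 of the 104 entries, giving 129 sequences with 124 different seeds. They are written 5′ to 3′ with the seed in capitals. The first set belongs to abundant entries whose mature sequence is also found, letter for letter, in the mRNA named after it.
miR-703 (Mir703, chromosome 5; Eef1a1): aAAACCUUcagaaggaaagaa
miR-692 (Mir692-1, chromosome 17; Ftl1 and 6 other genes): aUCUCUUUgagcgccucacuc
miR-686 (Mir686, chromosome 14; Psmb5 and a pseudogene): aUUGCUUCccagacggugaaga
miR-682 (Mir682, chromosome 13; Rpl37a and 6 pseudogenes): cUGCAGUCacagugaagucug
miR-1956 (Mir1956, chromosome 3; Eif4e): aGUCCAGGgcugagucagcgga
The second set belongs to entries that passed the test between genotypes.
miR-142a-3p (Mir142, chromosome 11): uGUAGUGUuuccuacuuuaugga
miR-302c-3p (Mir302c, chromosome 3): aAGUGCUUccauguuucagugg
miR-186-5p (Mir186, chromosome 3): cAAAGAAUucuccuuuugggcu
miR-1894-3p (Mir1894, chromosome 17): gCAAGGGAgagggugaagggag
miR-5134-3p (Mir5134, chromosome 17): aCGGGUGGcccucuuucugcag
miR-690 (Mir690, chromosome 16): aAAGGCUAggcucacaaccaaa
miR-742-3p (Mir742, chromosome X): gAAAGCCAccaugcuggguaaa
miR-697 (Mir697, chromosome 4): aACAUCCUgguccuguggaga
Of the 124 seeds, 5 are shared by 2 entries, and the third set shows a pair across families and the let-7 pair. miR-295-3p of the mir-290 cluster and miR-302b-3p of the mir-302 cluster share the seed AAGUGCU, and both let-7 members share GAGGUAG. The other shared seeds join Mir15a with Mir16-1, Mir302b with Mir302c, and Mir680-1 with Mir680-2.
miR-295-3p (Mir295, chromosome 7): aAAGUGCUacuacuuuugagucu
miR-302b-3p (Mir302b, chromosome 3): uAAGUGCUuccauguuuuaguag
let-7d-5p (Mirlet7d, chromosome 13): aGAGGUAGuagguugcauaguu
let-7f-5p (Mirlet7f-1, chromosome 13): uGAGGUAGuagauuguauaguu

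As a check of the labels, Tet3 was at 0.519 and 0.412 FPKM in the Tet3-null blastocysts, 0.957 and 0.459 in wild-type blastocysts, 3.28 and 4.41 in Tet3-null 2-cell embryos, and 10.8 and 7.54 in wild-type 2-cell embryos. The 2-cell groups did not overlap and the blastocyst groups did; the labels do not give the exons that Cre removes. All 10 markers of 2-cell embryos and oocytes were lower in blastocysts in both genotypes, and of 11 blastocyst markers fitted 7 were called higher in Tet3-null and 8 in wild-type blastocysts. Gata4, a primitive endoderm marker, was called lower in both (limma adjusted p of 0.00872 and 0.00651). All 8 markers of cumulus and granulosa cells stayed below 1 FPKM in every library, with sums of at most 1.16 FPKM. The 6 sperm markers summed to 4.86 to 7.61 FPKM in blastocysts and 7.39 to 23.4 FPKM in 2-cell embryos. The 6 blood markers summed to 6.08 and 4.10 FPKM in Tet3-null blastocysts, 3.52 and 3.53 in wild-type blastocysts, 10.2 and 29.0 in Tet3-null 2-cell embryos, and 33.7 and 31.2 in wild-type 2-cell embryos, with Hbb-b1 at 0 in all 8. The part of these cells in the results below was not tested.

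The microRNA entries were on in some libraries and off in others far more often than other genes. Only 16 of the 104 entries (15.4%) were above 0 in all 8 libraries, against 36 of 87 other small RNA genes fitted (41.4%) and 11515 of 13358 other genes fitted (86.2%). Among pairs of replicate libraries in which at least 1 library reached 1 FPKM, the other was listed at 0 in 107 of 275 cases (38.9%) for microRNA entries, 76 of 304 (25%) for the other small RNA genes and 209 of 44928 (0.465%) for the remaining genes. Of the 104 entries, 47 were above 0 in both Tet3-null blastocyst libraries, 54 in both wild-type blastocyst libraries, 37 in both Tet3-null 2-cell libraries and 40 in both wild-type 2-cell libraries. By stage, 33 entries were at 0 in all 4 2-cell libraries, 11 were at 0 in all 4 blastocyst libraries and 60 had a value at both stages. The 16 entries with a value everywhere include Mir147, Mir1892 and Mir5136, each of which was below 1 FPKM in 6 libraries.

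**Figure D1:**
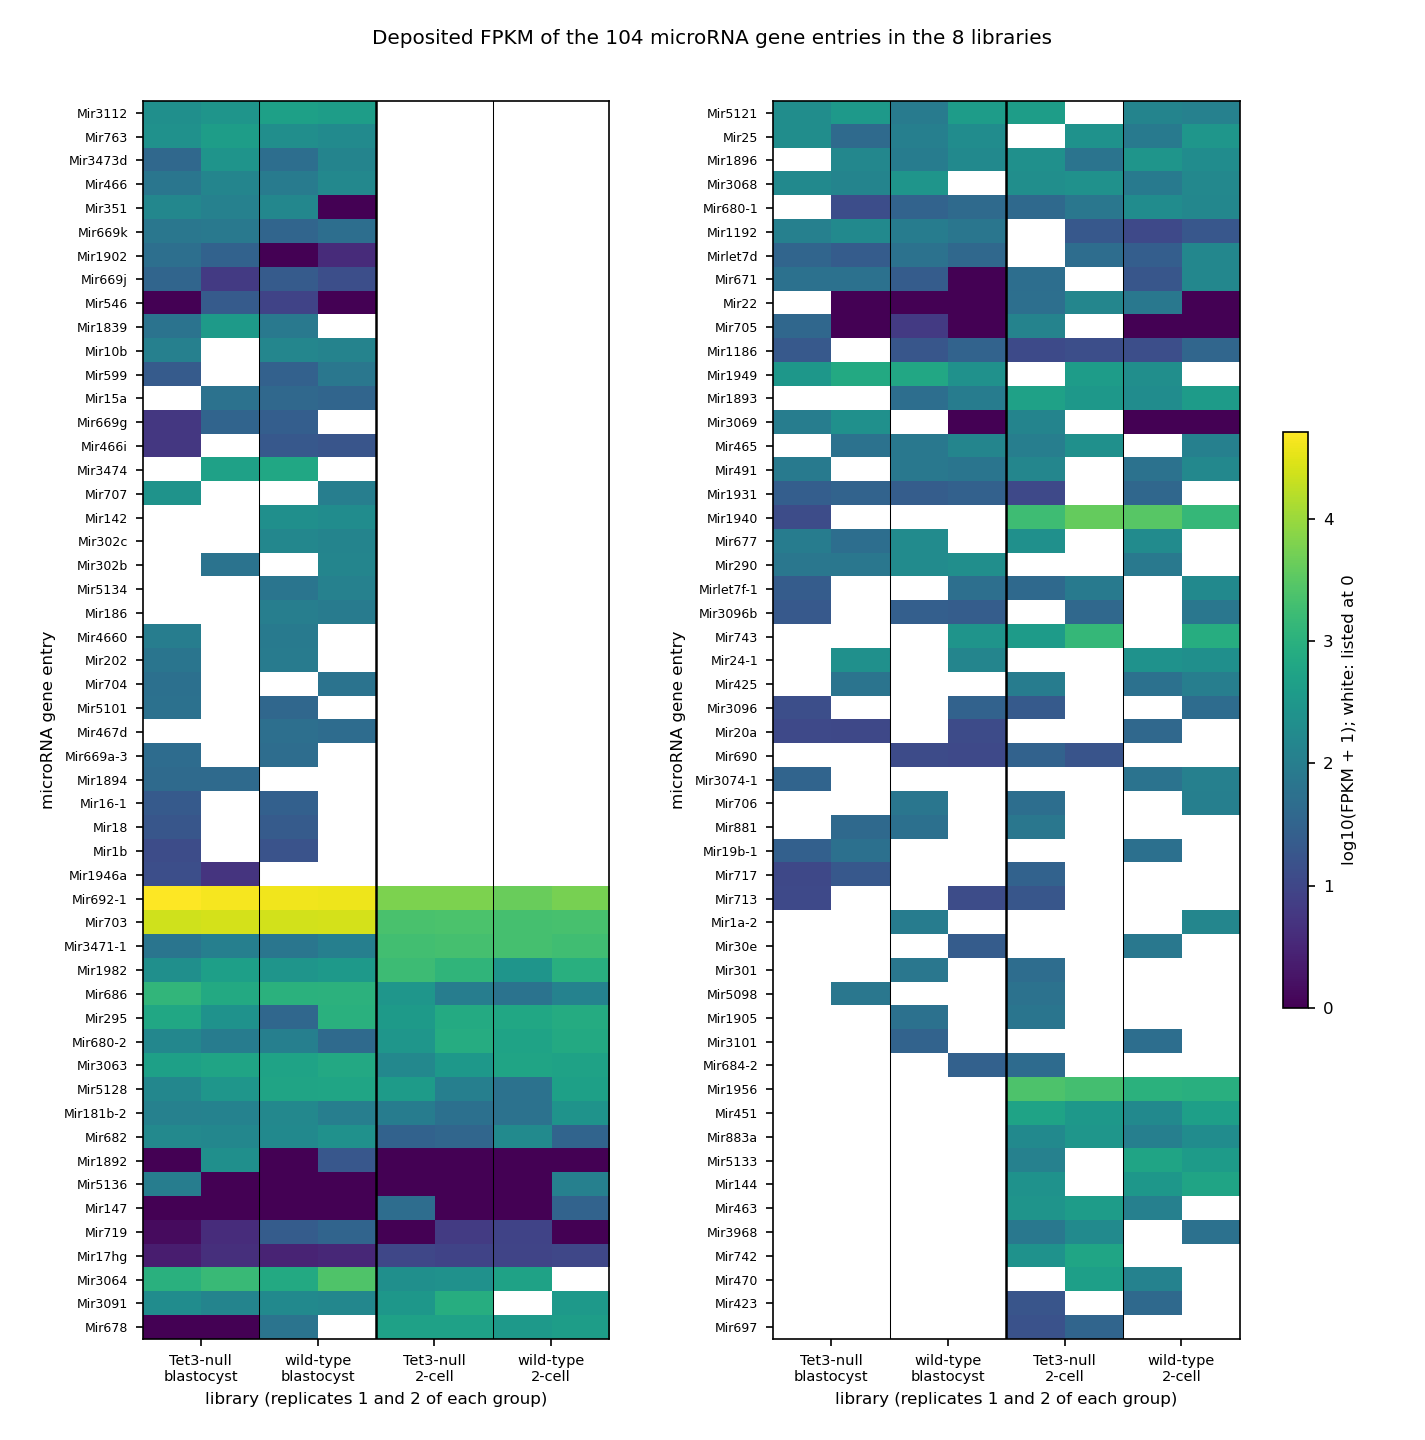
Each row is 1 of the 104 microRNA gene entries and each column 1 library, in 4 groups of 2; color gives log10(FPKM + 1), and white means listed at 0. The first 33 rows are entries at 0 in all 2-cell libraries, the last 11 are entries at 0 in all blastocyst libraries, and unbroken rows such as Mir692-1 and Mir703 are few.

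On genes as short as a hairpin, a high FPKM can stand for few fragments. Read totals are not given in the files, but relative depth could be read from low values: against wild-type replicate 1 of the same stage it was 1.31 and 1.28 in Tet3-null blastocysts, 1.13 in wild-type blastocyst replicate 2, 1.22 and 1.02 in Tet3-null 2-cell embryos, and 1.11 in wild-type 2-cell replicate 2. After this scaling, values of entries seen in a single library of a stage mostly lay near 1 curve against hairpin length, fitted apart for each stage. The height of this fitted curve at a given length is called a step here; where whole fragments are counted, it may be what 1 fragment is worth. Values below it occur. A step came to 208 FPKM at 65 nt, 40.9 FPKM at 85 nt and 12.3 FPKM at 109 nt in blastocysts, and to 334, 61.6 and 19.9 FPKM at the same lengths in 2-cell embryos. Of such lone values, 56 of 67 in blastocysts (83.6%) and 23 of 37 in 2-cell embryos (62.2%) lay within 25% of 1 step. The curve was read from these lone values, so their closeness to it is no separate evidence of what a step is worth.

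Most member values were a few steps high. Of 401 values of 1 FPKM or more in entries with a known hairpin length, 18 lay below 1 step by over 25%. Of the 401, 141 (35.2%) were at most 1.5 steps, 249 (62.1%) at most 3.5 steps and 63 (15.7%) above 10 steps. A further 39 values of these entries lay above 0 and below 1 FPKM. By their highest value, 21 entries never passed 1.5 steps, 35 lay between 1.5 and 3.5 steps, 29 between 3.5 and 10 steps and 15 above 10 steps, and 4 (Mir1186, Mir17hg, Mir1940 and Mir3096b) had no length in the reference used. The 15 were Mir1192, Mir1949, Mir1982, Mir3063, Mir3064, Mir3471-1, Mir351, Mir5128, Mir669k, Mir680-2, Mir682, Mir686, Mir692-1, Mir703 and Mir763. Of entries named for widely studied microRNAs, Mir15a, Mir16-1, Mir20a, Mir24-1, Mir30e, Mir302b, Mir142 and Mir10b are in the first 2 classes, Mirlet7d, Mirlet7f-1, Mir22, Mir25, Mir290, Mir295, Mir451 and Mir181b-2 in the third, and Mir351 in the last.

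**Figure D2:**
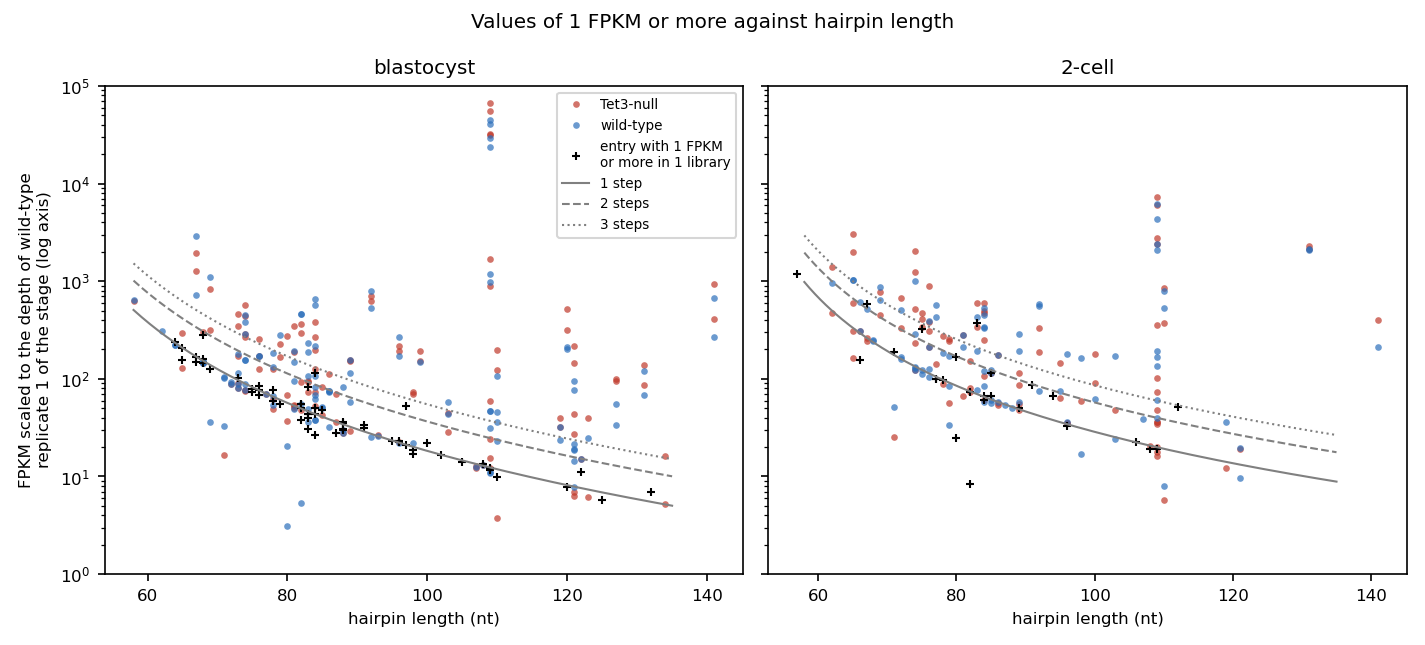
Values of 1 FPKM or more after scaling for depth (vertical, log axis) against hairpin length in nt, for blastocysts on the left and 2-cell embryos on the right; each point is 1 entry in 1 library, crosses are entries that reached 1 FPKM in a single library, and lines mark 1, 2 and 3 steps. Most points lie on or near the lowest lines, and the columns of points near 109 nt that reach far above them include Mir692-1 and Mir703.

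Mir703 and Mir692-1 held most of the microRNA signal in blastocysts, and both followed an abundant mRNA. Together they made up 85.3% to 90.4% of the summed FPKM of the 104 entries in blastocysts and 30.7% to 35.04% in 2-cell embryos. The 104 entries made up 7.96% to 8.74% of the summed FPKM of all genes in blastocysts and 3.26% to 4.22% in 2-cell embryos. Mir703 was at 23676 and 25119 FPKM in the Tet3-null blastocysts, 23838 and 25775 in wild-type blastocysts, 2245 and 2328 in Tet3-null 2-cell embryos, and 2110 and 2165 in wild-type 2-cell embryos. The stages were far apart, and the genotypes overlapped in blastocysts. The Mir703 locus lies opposite to Cfap299, in an intron, but its hairpin was 98.2% identical over 109 bases to the mRNA of Eef1a1, the translation elongation factor, with no other match. The ratio of Mir703 to Eef1a1 FPKM was 6.86 and 7.30 in Tet3-null blastocysts, 7.28 and 7.14 in wild-type blastocysts, 6.66 and 6.60 in Tet3-null 2-cell embryos, and 6.24 and 5.81 in wild-type 2-cell embryos. Its highest value was 1.26 times its lowest, while Mir703 itself was 11.1 times higher in blastocysts than in 2-cell embryos and Eef1a1 9.84 times.

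Mir692-1 was at 51018 and 43099 FPKM in the Tet3-null blastocysts, 40485 and 39473 in wild-type blastocysts, 5902 and 5916 in Tet3-null 2-cell embryos, and 4344 and 5555 in wild-type 2-cell embryos. It was higher in every blastocyst library than in any 2-cell library. Its locus lies outside annotated genes, and its hairpin matched 11 other genes at up to 97.8% identity, among them Ftl1, the ferritin light chain, and its pseudogenes. The ratio of Mir692-1 to Ftl1 was 5.75 and 5.503 in Tet3-null blastocysts, 5.61 and 5.31 in wild-type blastocysts, 5.29 and 5.24 in Tet3-null 2-cell embryos, and 3.86 and 4.12 in wild-type 2-cell embryos. Mir692-1 was 8.02 times and Ftl1 6.64 times higher in blastocysts than in 2-cell embryos. On the log2(FPKM + 1) scale Mir703 was higher in blastocysts by 3.41 in Tet3-null embryos (SE 0.10, limma adjusted p of 4.48e-07) and by 3.54 in wild-type embryos (SE 0.10, adjusted p of 4.43e-07). Mir692-1 was higher by 2.99 in Tet3-null embryos (SE 0.14, limma adjusted p of 2.92e-06) and by 3.02 in wild-type embryos (SE 0.14, adjusted p of 3.16e-06).

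Further abundant entries lay in, or matched, other mRNAs. Mir686 lies in an exon of Psmb5, a catalytic proteasome subunit, and was at 1278 and 708 FPKM in the Tet3-null blastocysts, 994 and 1042 in wild-type blastocysts, 291 and 99.7 in Tet3-null 2-cell embryos, and 60.9 and 122 in wild-type 2-cell embryos. Its ratio to Psmb5 ran from 0.70 to 2.47 over the 8 libraries, and the entry was 7.004 times and the mRNA 8.49 times higher in blastocysts than in 2-cell embryos. Without Tet3-null 2-cell replicate 1 the folds were 10.7 for Mir686 and 9.58 for Psmb5. Mir682 matched the ribosomal protein mRNA Rpl37a at 99.0% identity and a series of pseudogenes, and was 2.63 times higher in blastocysts than in 2-cell embryos, against 3.46 times for Rpl37a. Without wild-type 2-cell replicate 1 the folds were 5.67 for Mir682 and 3.39 for Rpl37a. It was at 167 and 151 FPKM in the Tet3-null blastocysts, 170.2 and 236 in wild-type blastocysts, 29.2 and 34.1 in Tet3-null 2-cell embryos, and 179 and 32.4 in wild-type 2-cell embryos. Wild-type 2-cell replicate 1 was alone among the 2-cell libraries in reaching the blastocyst range. Mir680-1 and Mir680-2 each matched 10 or 11 other genes and share 1 mature sequence, so their separate values are uncertain.

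**Figure D3:**
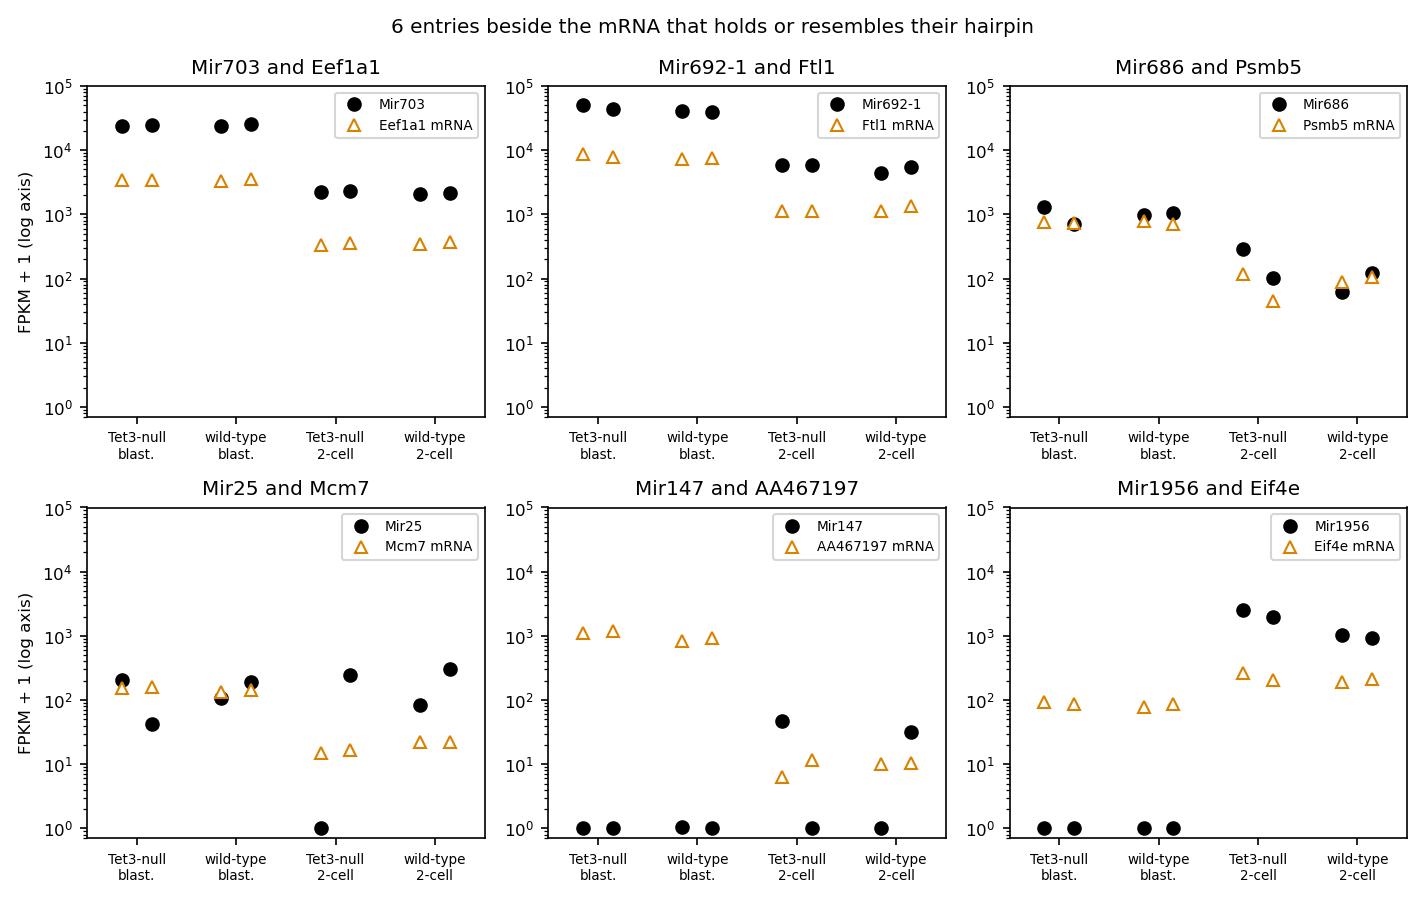
FPKM + 1 on a log axis for 6 entries (black circles) and the gene that holds or resembles their hairpin (open triangles), 1 pair per library in 4 groups. For Mir25 the match is to a retained-intron transcript of Mcm7. Mir703, Mir692-1 and Mir686 move with Eef1a1, Ftl1 and Psmb5, whereas Mir25, Mir147 and Mir1956 do not keep a fixed distance from Mcm7, AA467197 and Eif4e.

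Lying in a host gene was no guarantee of following it. Of 100 entries with a position in GENCODE M21 (GRCm38), 18 lay outside annotated genes and 82 inside one. For 67 the host was listed in the files, on the same strand in 59 cases (32 in an exon and 27 in an intron) and on the opposite strand in 8. Of the 32, 4 lie in an exon of a retained-intron or decay transcript. The stage with the higher mean was the same for entry and host in 39 of 67 cases. By class this was so for 17 of 32 exonic entries, 19 of 27 intronic entries and 3 of 8 entries on the opposite strand. The 67 entries have 56 different hosts, and 7 of the 19 intronic entries share the host Sfmbt2. The cases are therefore not independent, and the classes cannot be compared by these counts. The library preparation does not mark strand, so reads of an entry and of a gene on the other strand cannot be told apart. In 4 cases (Mir10b, Mir1905, Mir690 and Mir717) the host was below 1 FPKM in every library where the entry reached 1 FPKM or more. For Mir295, Mir671 and Mir707 this held in some of those libraries and not in others.

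Mir25 and Mir147 were clear departures. Mir25, a member of the mir-106b cluster inside Mcm7, a helicase subunit of DNA replication, was at 204 and 41.7 FPKM in the Tet3-null blastocysts, 108 and 190.1 in wild-type blastocysts, 0 and 245 in Tet3-null 2-cell embryos, and 83.6 and 301 in wild-type 2-cell embryos. The stages overlapped, while Mcm7 was 8.06 times higher in blastocysts than in 2-cell embryos. The Mir25 hairpin matched a retained-intron transcript of Mcm7. FPKM are given per gene, so the level of that transcript is not known. Mir147 lies in an exon of AA467197, which was at 821 to 1203 FPKM in blastocysts and 5.28 to 10.7 FPKM in 2-cell embryos. The entry was at most 0.0359 FPKM in blastocysts and reached 46.6 FPKM in Tet3-null 2-cell replicate 1 and 30.3 FPKM in wild-type 2-cell replicate 2. How the authors' software divided fragments between a hairpin and the exon around it is not given in the sources used here. Mir22 went the other way: it was at 51.4 and 142 FPKM in Tet3-null 2-cell embryos and 74.3 and 0.000359 in wild-type 2-cell embryos, and at most 0.000778 FPKM in blastocyst libraries. The Mir22 hairpin matches transcripts of Mir22hg, which was not listed, and of Tlcd2. Tlcd2 was at 1.91 to 2.82 FPKM in blastocysts and 853 to 957 FPKM in 2-cell embryos.

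Among the other abundant entries, Mir3064 went against its host. Mir3064, in an exon of the RNA helicase gene Ddx5, was at 973 and 1544 FPKM in the Tet3-null blastocysts, 727 and 2568 in wild-type blastocysts, 216 and 241 in Tet3-null 2-cell embryos, and 521 and 0 in wild-type 2-cell embryos. All blastocyst libraries lay above all 2-cell libraries, although limma did not call the stage change (adjusted p of 0.396 in Tet3-null and 0.0619 in wild-type). Ddx5 itself was lower in blastocysts, at 0.553 times its 2-cell level. The match of the Mir3064 hairpin was to a decay transcript of Ddx5, whose own level is not given. Mir3063, in an exon of Igf2bp1, an mRNA-binding protein gene, was at 473 and 559 FPKM in the Tet3-null blastocysts, 526 and 700.2 in wild-type blastocysts, 155 and 323 in Tet3-null 2-cell embryos, and 558 and 523 in wild-type 2-cell embryos. The stages did not overlap in Tet3-null embryos and did in wild-type embryos. Its Tet3-null stage change of 1.196 on the log2(FPKM + 1) scale was called (SE 0.33, limma adjusted p of 0.0123). The call was lost without Tet3-null blastocyst replicate 2 (limma adjusted p of 0.0697), with no filter on low values (0.0578) and with quantile normalization (0.108).

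Mir1982, in a retained-intron transcript of Oaz1, an inhibitor of polyamine synthesis, was at 220.3 and 449 FPKM in the Tet3-null blastocysts, 288 and 339 in wild-type blastocysts, 1681 and 1221 in Tet3-null 2-cell embryos, and 287 and 913 in wild-type 2-cell embryos. Its change of -2.18 between stages was called in Tet3-null embryos (SE 0.55, limma adjusted p of 0.00842), and the call was lost without Tet3-null blastocyst replicate 1 (limma adjusted p of 0.0599). Oaz1 was also lower in blastocysts, at 0.522 times its 2-cell level. Mir5128, in an intron of Strbp, ranged from 57.8 to 576 FPKM over the 8 libraries, and Mir181b-2, opposite to an intron of Nr6a1, from 54.2 to 260.4 FPKM. For Mir5128 the stages overlapped in Tet3-null embryos alone and for Mir181b-2 in wild-type embryos alone, and neither was called by stage or genotype. Mir680-2 was at 150.1 and 95.8 FPKM in the Tet3-null blastocysts, 108 and 40.7 in wild-type blastocysts, 303 and 823 in Tet3-null 2-cell embryos, and 532 and 709 in wild-type 2-cell embryos, with the stages apart.

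By stage, limma called 20 entries higher and 18 entries lower in Tet3-null blastocysts than in Tet3-null 2-cell embryos, 38 of 104 (36.5%), where 74% of all 13549 genes tested were called (38.9% higher and 35.1% lower). In wild-type embryos 21 were higher and 13 lower, 34 of 104 (32.7%), where 74.3% of all genes were called (35.8% higher and 38.4% lower). A call here is a limma adjusted p of at most 0.05 over all 13549 genes. The median change of the 104 entries was 0.44 in Tet3-null and 1.14 in wild-type embryos on the log2(FPKM + 1) scale, beside 0.09 and -0.08 for all genes tested. In Tet3-null embryos 24 of 38 calls, and in wild-type embryos 24 of 34, had a stage at 0 in both libraries, so no fold change can be given for them. Over all these stage calls, with or without zeros, 20 entries were called in both genotypes: 10 were higher and 9 lower in both, and Mir690 was called in opposite directions. Blastocyst and 2-cell libraries did not overlap for 27 entries higher and 22 lower in Tet3-null blastocysts (26.0% and 21.2%), beside 44.8% and 41.3% of all genes. In wild-type embryos this held for 29 higher and 17 lower (27.9% and 16.3%), beside 43% and 46.3%. Of the calls whose host on the same strand was fitted, the host was called in the same direction for 17 of 20 in Tet3-null and 14 of 17 in wild-type embryos. The host was called the opposite way for Mir19b-1 and Mir697 in Tet3-null embryos. Most hosts were called by stage in any case. Of 50 fitted (without Mir17hg), 21 were higher and 15 lower in Tet3-null blastocysts, and 18 higher and 18 lower in wild-type blastocysts. Mir466, Mir669j and Mir669k, in both counts, share the host Sfmbt2 and are not independent cases.

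All 7 entries in introns of Sfmbt2, on chromosome 2, were at 0 in the 4 2-cell libraries. Sfmbt2 is a Polycomb-group gene, paternally expressed and needed for the placenta in the mouse, and its introns hold a large repeated group of microRNA hairpins (Mir466, Mir467d, Mir669a-3, Mir669g, Mir669j, Mir669k and Mir4660 here). Of the 7, there were 6 and 4 above 0 in Tet3-null blastocysts and 7 and 4 in wild-type blastocysts. In FPKM, Mir466 had the highest mean over the blastocyst libraries, 113 FPKM, but at most 1.84 steps. Mir669k had the most steps and was at 72.9 and 77.7 FPKM in the Tet3-null blastocysts, against 33.7 and 49.1 in wild-type blastocysts. In steps this was 14.9 and 15.4 in Tet3-null, against 5.23 and 8.64 in wild-type blastocysts. These groups did not overlap, and limma did not call the difference (adjusted p of 0.514). Sfmbt2 itself was at 14.3 and 13.9 FPKM in the Tet3-null blastocysts, 22.6 and 19.5 in wild-type blastocysts, 1.201 and 2.08 in Tet3-null 2-cell embryos, and 3.14 and 0.787 in wild-type 2-cell embryos. It was called higher in blastocysts in both genotypes (limma adjusted p of 0.00069 in Tet3-null and 0.000295 in wild-type). Because the hairpins are close copies of each other, the split between them is uncertain.

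Mir763, in an intron of the chromatin protein gene Hmga2, was at 239 and 409.7 FPKM in the Tet3-null blastocysts, against 212 and 179.7 in wild-type blastocysts, and at 0 in all 2-cell libraries. Hmga2 was 5.61 times higher in blastocysts than in 2-cell embryos. Mir3112, in an exon of Cstf2, an mRNA 3′-end processing factor, was at 225 and 285 FPKM in the Tet3-null blastocysts, against 465 and 408 in wild-type blastocysts, and also at 0 in all 2-cell libraries. Cstf2 was 3.08 times higher in blastocysts. Both entries were called in both genotypes, with limma adjusted p from 1.67e-07 to 9.22e-07.

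The mir-290 and mir-302 clusters, which mark early embryonic and pluripotent cells, met the limit with 2 entries each. Of the mir-290 cluster, Mir290 and Mir295 met the limit of 1 FPKM. Mir290 was at 72.1 and 72.5 FPKM in the Tet3-null blastocysts, 188 and 208 in wild-type blastocysts, 0 and 0 in Tet3-null 2-cell embryos, and 77.5 and 0 in wild-type 2-cell embryos. In steps this was 2.04 and 1.99 in Tet3-null blastocysts and 4.05 and 5.07 in wild-type blastocysts, which did not overlap. Mir290 was called higher in blastocysts in Tet3-null (limma adjusted p of 0.0120) and in wild-type embryos (0.0433), and not between genotypes. Mir295 was at 635 and 249 FPKM in the Tet3-null blastocysts, 36.4 and 984 in wild-type blastocysts, 372 and 755 in Tet3-null 2-cell embryos, and 641 and 785 in wild-type 2-cell embryos, with overlap between the stages in each genotype and between the genotypes at each stage. Its hairpin lies opposite to an exon of Nlrp12, which was at 0.20 to 0.42 FPKM in blastocysts and 1.48 to 2.89 FPKM in 2-cell embryos. Mir294 had 87.7 FPKM in Tet3-null blastocyst replicate 1 and at most 0.0143 elsewhere. Mir302b was at 0 and 60.8 FPKM in the Tet3-null blastocysts and 0 and 138 in wild-type blastocysts. Mir302b and Mir302c were at 0 in all 2-cell libraries and lie opposite to Larp7, in an intron.

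Of the mir-17 clusters, the host RNA was lower in blastocysts. Mir17hg, the host RNA of the mir-17 cluster, was at 1.43 and 3.38 FPKM in the Tet3-null blastocysts, 1.96 and 2.31 in wild-type blastocysts, 8.97 and 7.78 in Tet3-null 2-cell embryos, and 8.12 and 9.22 in wild-type 2-cell embryos. It was lower in every blastocyst library than in any 2-cell library. The change on the log2(FPKM + 1) scale was -1.52 in Tet3-null (SE 0.28, limma adjusted p of 0.00207) and -1.63 in wild-type embryos (SE 0.28, adjusted p of 0.00151). Its hairpins Mir18, Mir19b-1 and Mir20a had at most 1.91 steps in any library and were each at 0 in at least 4 libraries. Mirlet7d and Mirlet7f-1, which lie in exons of 6720427I07Rik on chromosome 13, were the only let-7 entries that met the limit. Mirlet7d was at 34.0 and 22.6 FPKM in the Tet3-null blastocysts, 57.6 and 38.5 in wild-type blastocysts, 0 and 46.7 in Tet3-null 2-cell embryos, and 24.3 and 153 in wild-type 2-cell embryos. Mirlet7f-1 was at 22.4 and 0 FPKM in the Tet3-null blastocysts, 0 and 50.9 in wild-type blastocysts, 39.2 and 85.5 in Tet3-null 2-cell embryos, and 0 and 172 in wild-type 2-cell embryos. The genotypes did not overlap for Mirlet7d in blastocysts, nor the stages for Mirlet7f-1 in Tet3-null embryos; other groups overlapped, and neither entry was called by stage or genotype. Of 16 entries of imprinted microRNA clusters, 15 were at 0 in all libraries, and Mir675, in H19, had 26.5 FPKM in wild-type blastocyst replicate 1 alone.

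At the 2-cell stage a few entries stood out by level. Mir3471-1 was at 66.2 and 107 FPKM in the Tet3-null blastocysts, 69.0 and 107 in wild-type blastocysts, 1887 and 2066 in Tet3-null 2-cell embryos, and 2122 and 1870 in wild-type 2-cell embryos. The change in blastocysts was -4.53 in Tet3-null and -4.52 in wild-type embryos on the log2(FPKM + 1) scale (SE 0.28 each, limma adjusted p of 7.84e-06 and 9.1e-06). The entry lies outside annotated genes, and its mature sequence occurs in transcripts of 34 genes. Mir1940, which had no position, was at 11.7 and 0 FPKM in the Tet3-null blastocysts, 0 and 0 in wild-type blastocysts, 1752 and 3944 in Tet3-null 2-cell embryos, and 3031 and 1379 in wild-type 2-cell embryos. Mir1956, in an exon of the cap-binding factor gene Eif4e, was at 0 in all blastocyst libraries, where Eif4e was at 76.1 to 91.8 FPKM.

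Mir144 and Mir451, an erythroid pair from 1 primary transcript on chromosome 11, were on only in 2-cell libraries. Mir451 was at 548 and 327 FPKM in Tet3-null, against 168 and 455 FPKM in wild-type 2-cell embryos. In steps this was 4.204 and 2.098 in Tet3-null, against 1.06 and 3.16 in wild-type libraries, which overlapped. Mir144 was at 250 and 0 FPKM in Tet3-null, against 307 and 557 FPKM in wild-type 2-cell embryos. Of the 6 blood markers, the hemoglobin genes gave at most 0.0075 FPKM for Hba-a1 and 0 for Hbb-b1, and Ptprc, the pan-leukocyte gene, at most 0.00369 FPKM. Cd52, a leukocyte surface gene, was at 0.92 to 2.55 FPKM in blastocysts and 8.80 to 28.1 FPKM in 2-cell embryos, and was called lower in blastocysts in both genotypes (limma adjusted p of 0.00226 in Tet3-null and 0.000302 in wild-type). Coro1a, an actin-binding gene of leukocytes, was at 0.13 to 1.07 FPKM in blastocysts, 0.248 and 0.918 in Tet3-null 2-cell embryos, and 5.38 and 5.85 in wild-type 2-cell embryos. Laptm5 was at 1.33 to 3.15 FPKM in blastocysts and 0 to 1.16 FPKM in 2-cell embryos. The part of such cells in the values of Mir144 and Mir451 was not tested.

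A group of 7 X-linked entries (Mir463, Mir465, Mir470, Mir742, Mir743, Mir881 and Mir883a), best known from testis, also leaned to the 2-cell stage. Of these, 4 were at 0 in all blastocyst libraries and none was at 0 in all 2-cell libraries. In each Tet3-null 2-cell library 6 of the 7 were above 0, against 3 in each wild-type 2-cell library. Their values summed to 8.28 and 16.1 steps in Tet3-null 2-cell embryos and to 2.81 and 4.67 steps in wild-type 2-cell embryos, without overlap; in blastocysts the sums were 0 and 1.61 steps in Tet3-null, against 1.68 and 2.80 steps in wild-type libraries. The group was chosen after these values were known, and no test of the sum was made. The sperm markers summed to 11.8 and 23.4 FPKM in Tet3-null, against 7.39 and 8.05 FPKM in wild-type 2-cell embryos. None of the 5 fitted was called between genotypes there, and their median change was 0.02, beside -0.17 for all genes. The part of sperm in the values of the X-linked entries was not tested.

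**Figure D4:**
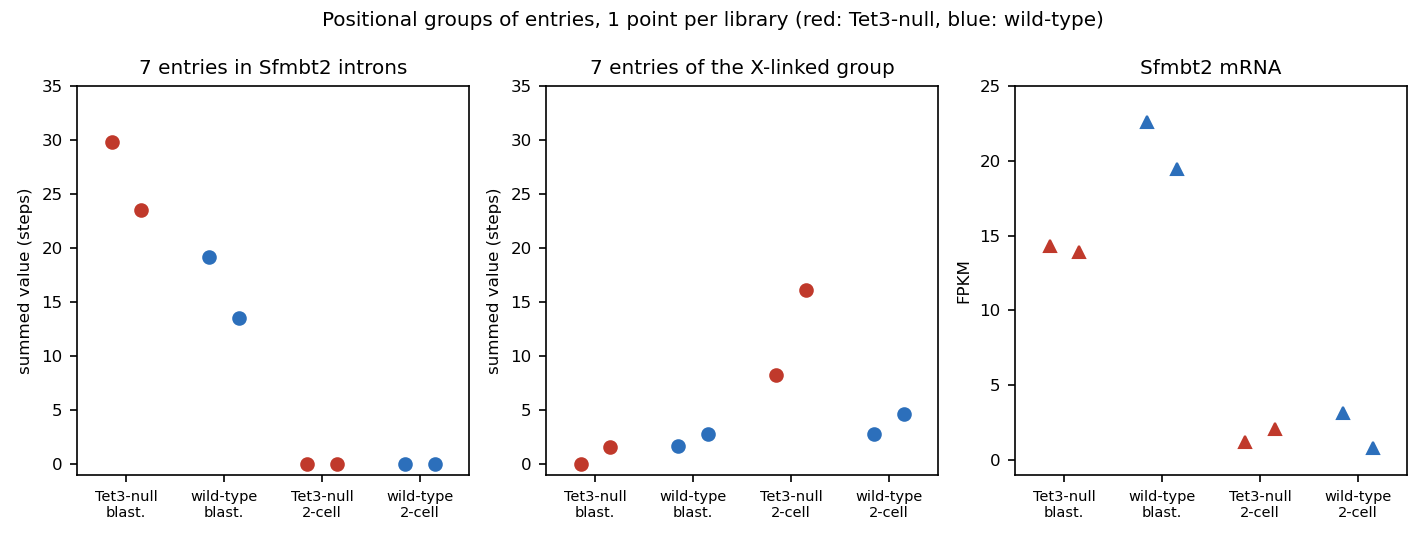
Summed value in steps of the 7 entries in Sfmbt2 introns (left) and of the 7 X-linked entries (middle), and FPKM of Sfmbt2 (right), 1 point per library in 4 groups. The Sfmbt2 entries are at 0 in all 2-cell libraries, and the X-linked sums are highest in the 2 Tet3-null 2-cell libraries, at 8.28 and 16.1 steps.

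Between genotypes, nearly all calls of microRNA entries rested on 1 or 2 steps. In 2-cell embryos 4 entries (3.85%) were called higher in Tet3-null and none lower, where 0.613% of all genes tested were called higher, 2.1% lower and 2.72% in either direction. That count moved when a library was left out, as did the number of all genes called, and such fits leave 1 library in a group. By limma's unadjusted p under 0.05, 7 of the 104 were higher and 4 lower, beside 5.36% higher and 18.3% lower among all genes. Fitted on the 4 libraries of the comparison alone, all 4 of these entries lost their calls (limma adjusted p of 0.139 to 0.376). In Tet3-null blastocysts 1 entry was called higher and 7 lower, 8 of 104 (7.69%), where 0.0148% of all genes were called higher, 0.0517% lower and 0.0664% in either direction. These 8 were 8 of the 9 genes called there in all, the other being Hprt, a purine salvage gene, at 1553 and 1469 FPKM in Tet3-null, against 283 and 377 FPKM in wild-type blastocysts. Of the 12 calls, on 11 entries, 11 had a genotype at 0 in both libraries and a highest value of at most 2.29 steps. Mir142, Mir302c, Mir186, Mir1894, Mir467d, Mir5134, Mir742 and Mir697 were above 0 only in the 2 libraries of 1 group. A difference between groups was thus fixed by the rule that chose them, and their calls and shares are no separate evidence. Groups did not overlap for 11 entries higher and 7 lower in Tet3-null 2-cell embryos (10.6% and 6.73%), beside 12.6% and 34.9% of all genes. In blastocysts this held for 11 higher and 19 lower (10.6% and 18.3%), beside 19% and 25.3%. The median change of the 104 entries was 0.00 in 2-cell embryos and -0.02 in blastocysts, beside -0.17 and -0.02 for all genes.

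The 7 entries called lower in Tet3-null blastocysts were at 0 in both Tet3-null libraries. Mir142, a blood microRNA in an intron of Mir142hg, was at 0 and 0 FPKM in Tet3-null, against 223 and 197 FPKM in wild-type blastocysts, or 0.96 step in each wild-type library. Mir302c was at 0 and 0 FPKM in Tet3-null, against 147 and 131 FPKM in wild-type blastocysts, or 0.97 step in each. Mir186, in an intron of the splicing factor gene Zranb2, was at 0 and 0 FPKM in Tet3-null, against 103 and 91.6 FPKM in wild-type blastocysts, or 0.89 and 0.90 step. These 3 show the pattern: 1 step in both libraries of one genotype and nothing in the other.

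Mir467d, in an intron of Sfmbt2, was at 0 and 0 FPKM in Tet3-null, against 51.1 and 44.3 FPKM in wild-type blastocysts, or 1.25 and 1.23 steps. Mir5134, in an exon of the cyclin gene Ccnf, was at 0 and 0 FPKM in Tet3-null, against 66.4 and 117 FPKM in wild-type blastocysts, or 1.02 and 2.03 steps. Mir1893, in an exon of Epc1 on chromosome 18, was at 0 and 0 FPKM in Tet3-null, against 49.7 and 93.9 FPKM in wild-type blastocysts, or 1.07 and 2.29 steps. In 2-cell embryos Mir1893 was at 489 and 329 FPKM in Tet3-null, against 195 and 387 FPKM in wild-type libraries, which overlapped.

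Mir690, in an intron of Fgf12 whose mRNA was at most 0.177 FPKM, was at 0 and 0 FPKM in Tet3-null, against 10.97 and 9.74 FPKM in wild-type blastocysts, or 0.89 step in each. At the 2-cell stage it was the reverse, with 29.3 and 15.9 FPKM in Tet3-null, against 0 and 0 FPKM in wild-type libraries. The mature sequence of Mir690 occurs in transcripts of 3 genes, BC018473, Fundc2 and Gm42826, and their part in these values was not tested. Mir1894, in an exon of a retained-intron or decay transcript of Ppp1r10, was called higher, at 40.7 and 41.6 FPKM in Tet3-null, against 0 and 0 FPKM in wild-type blastocysts, or 1.01 and 1.003 step. Limma adjusted p ran from 4.84e-06 for Mir142 and Mir302c to 0.00691 for Mir690, whose blastocyst call was lost without any 1 of the 4 blastocyst libraries. Fitted on the 4 blastocyst libraries alone, Mir5134, Mir1893 and Mir690 lost their calls (limma adjusted p of 0.0948, 0.155 and 0.0502), and with a pseudocount of 10 Mir1893 and Mir690 did (0.0694 and 0.147). The fitted differences on the log2(FPKM + 1) scale, from -7.72 for Mir142 to 5.40 for Mir1894, depend on the pseudocount of 1 and are no bounds of a fold change. The standard error was 0.16 for Mir142 and 3.41 for Mir743, and each pools the spread within all 4 groups. Mir743 was above 0 in a single library of wild-type blastocysts (276 FPKM, about 1 step) and of wild-type 2-cell embryos (1.90 steps).

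For the host genes no such differences were called in blastocysts. Fitted changes between Tet3-null and wild-type blastocysts were 0.05 for Larp7, 0.04 for Zranb2, 0.12 for Ppp1r10, 0.05 for Ccnf, -0.13 for Epc1 and -0.54 for Sfmbt2 (SE 0.17 to 0.39), each with a limma adjusted p of 1. Of the 50 host genes fitted (without Mir17hg, itself an entry), none was called between genotypes in blastocysts. There limma's unadjusted p was under 0.05 for 1 higher and 3 lower, beside 1.89% higher and 3.57% lower among all genes. In Tet3-null 2-cell embryos 2 of the 50 (4%) were called lower, where 2.1% of all genes were, and limma's unadjusted p was under 0.05 for 0 higher and 15 lower (30%), beside 5.36% higher and 18.3% lower among all genes. A p that misses the threshold does not show that hosts were equal.

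In 2-cell embryos, Mir742 of the X-linked group was at 252 and 580 FPKM in Tet3-null, against 0 and 0 FPKM in wild-type libraries, or 0.92 and 1.78 steps. Mir697, in an intron of the splicing factor gene Sf3a3, was at 14.7 and 33.8 FPKM in Tet3-null, against 0 and 0 FPKM in wild-type 2-cell embryos, or 0.90 and 1.73 steps. Limma adjusted p was 0.000157 for Mir742, 0.00166 for Mir690 and 0.00575 for Mir697, whose call was lost without wild-type 2-cell replicate 2. Sf3a3 changed by -0.04 (SE 0.21, limma adjusted p of 0.944).

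Mir1956 was the only entry called between genotypes with a value in all 4 libraries compared. It was at 2495 and 1962 FPKM in Tet3-null, against 1021 and 924 FPKM in wild-type 2-cell embryos, or 9.15 and 6.02 steps against 3.06 and 3.07. The groups did not overlap, and the difference was 1.19 on the log2(FPKM + 1) scale (SE 0.16, limma adjusted p of 0.0276). Eif4e, around it, was at 260 and 203 FPKM in Tet3-null, against 193 and 208 FPKM in wild-type 2-cell embryos, with overlap and a limma adjusted p of 0.475. The ratio of Mir1956 to Eif4e was 9.597 and 9.65 in Tet3-null, against 5.30 and 4.44 in wild-type 2-cell embryos. Without either wild-type 2-cell library or any 1 of the 4 blastocyst libraries the adjusted p was 0.0894 to 0.121, and with the replicate block it was 0.0618.

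**Figure D5:**
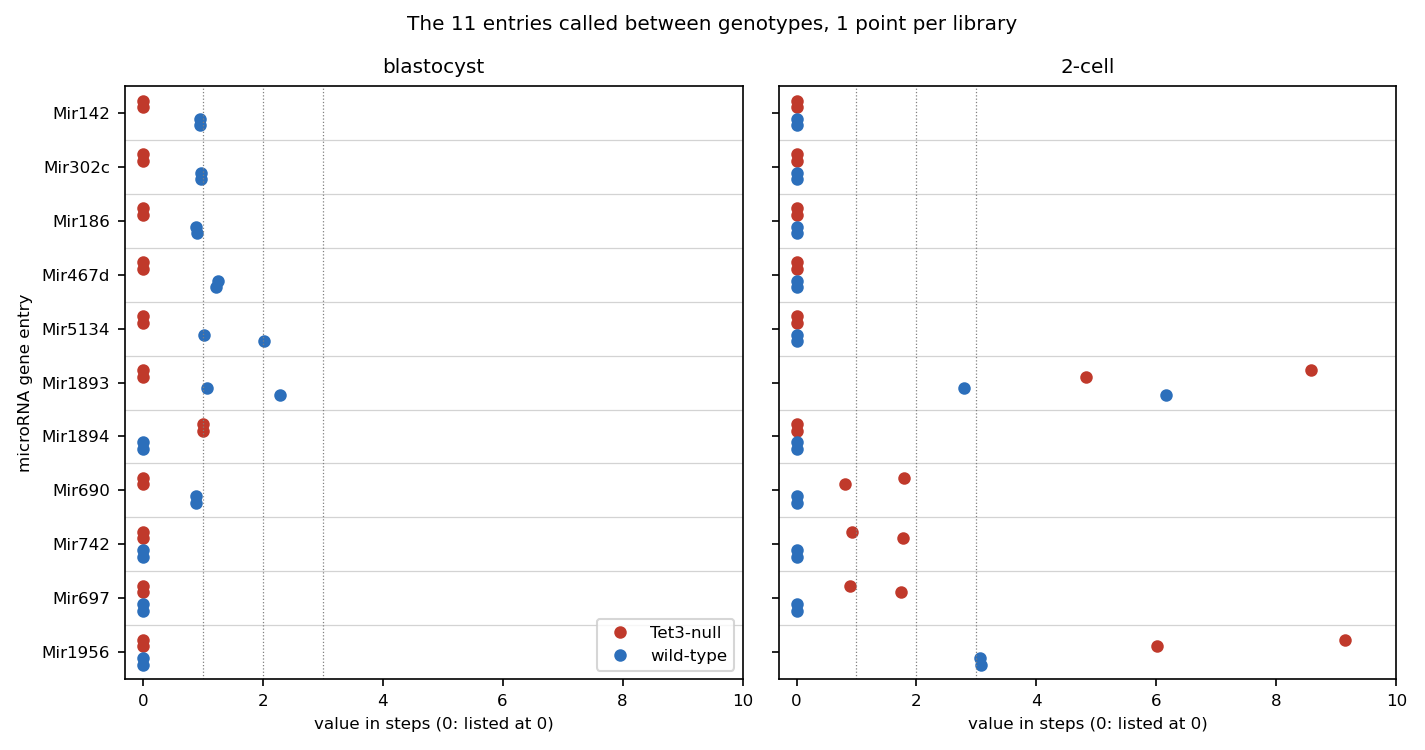
Values in steps of the 11 entries called between genotypes, blastocysts on the left and 2-cell embryos on the right, with Tet3-null libraries (red) above wild-type libraries (blue) in each row and 1 point per library. Apart from Mir1893 and Mir1956 in 2-cell embryos, all points lie at 0 or at most 2.29 steps.

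Other large differences between genotypes were not called although the groups did not overlap. Mir24-1 was at 0 and 0 FPKM in Tet3-null, against 246 and 224 FPKM in wild-type 2-cell embryos, or 1.04 and 1.05 steps (limma adjusted p of 0.155). Mir3074-1 was at 0 and 0 FPKM in Tet3-null, against 61.2 and 112 FPKM in wild-type 2-cell embryos, or 0.99 and 2.01 steps (limma adjusted p of 0.0584). Both hairpins match a transcript of 2010111I01Rik, on opposite strands, and the library preparation was unstranded, so reads of the entries and of that gene cannot be told apart. Mir5133, in an exon of Glce, was at 117 and 0 FPKM in Tet3-null, against 567 and 384 FPKM in wild-type 2-cell embryos (limma adjusted p of 0.141). Mir463 of the X-linked group was at 276 and 404 FPKM in Tet3-null, against 112 and 0 FPKM in wild-type 2-cell embryos (limma adjusted p of 0.162). In blastocysts Mir3069, whose hairpin lies in Scarna13, a small Cajal body RNA, was at 99.3 and 234 FPKM in Tet3-null, against 0 and 0.0014 FPKM in wild-type libraries (limma adjusted p of 0.583).

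The change between genotypes differed between stages for 10 entries, 1 higher and 9 lower in blastocysts relative to 2-cell embryos (9.62%), where 0.0517% of all genes tested were called higher, 0.0886% lower and 0.14% in either direction. Leaving out 1 library moved this count, but also the number of all genes called, and leaves a group of 1 library. Mir1893 lost its call without either Tet3-null blastocyst library, and Mir697 without any 1 of 6 libraries, those being all 4 of blastocysts and both of wild-type 2-cell embryos. The median of this difference was -0.14 for the 104 entries and 0.13 for all genes. The 10 are the entries above without Mir1956, and 8 of them had values in a single genotype at a single stage and were listed at 0 elsewhere. Mir1893 was also on in all 2-cell libraries. Mir690 was on in wild-type blastocysts and in Tet3-null 2-cell embryos. The entries were chosen by the same values, and the genotype comparisons at both stages use this one fit, so these calls are no separate evidence.

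Of the genes that make and use microRNAs, none was called between genotypes. Of 26 genes in the pathway list 24 were fitted, with median changes between genotypes of -0.20 in 2-cell embryos and -0.03 in blastocysts. For all genes these medians were -0.17 and -0.02. By limma's unadjusted p under 0.05, 0 of the 24 were higher and 5 lower in Tet3-null 2-cell embryos, beside 5.36% higher and 18.3% lower among all genes. In Tet3-null blastocysts 0 were higher and 1 lower, beside 1.89% and 3.57% of all genes. Of the 24, Xrn2 (-0.84, limma adjusted p of 0.0828) and Prkra (-0.82, adjusted p of 0.115) had the lowest fitted values in 2-cell embryos. In each genotype 13 were called higher and 7 lower in blastocysts, 20 of 24 (83.3%), where 74% of all genes tested were called in Tet3-null and 74.3% in wild-type embryos. Their median change by stage was 0.61 in each genotype, beside 0.09 and -0.08 for all genes. Among the higher genes, Xpo5, which exports hairpins from the nucleus, was at 18.7 and 18.6 FPKM in the Tet3-null blastocysts, 17.2 and 15.3 in wild-type blastocysts, 2.25 and 0.921 in Tet3-null 2-cell embryos, and 2.47 and 1.27 in wild-type 2-cell embryos. Tarbp2, a partner of Dicer1, was also higher, by 2.27 in Tet3-null and 2.17 in wild-type embryos on the log2(FPKM + 1) scale (limma adjusted p of 1.89e-05 and 2.55e-05).

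The 7 genes called lower in blastocysts include the enzymes at both cutting steps. Drosha was at 12.5 and 11.5 FPKM in the Tet3-null blastocysts, 10.8 and 10.98 in wild-type blastocysts, 18.6 and 17.8 in Tet3-null 2-cell embryos, and 20.3 and 21.5 in wild-type 2-cell embryos. Dicer1 was at 2.76 and 2.65 FPKM in the Tet3-null blastocysts, 2.79 and 2.58 in wild-type blastocysts, 9.57 and 7.71 in Tet3-null 2-cell embryos, and 9.57 and 9.86 in wild-type 2-cell embryos. The stages did not overlap for either gene. Among the Argonaute genes, Ago3 (listed as Eif2c3) was lower in blastocysts, with changes of -2.13 in Tet3-null and -2.40 in wild-type embryos on the log2(FPKM + 1) scale (limma adjusted p of 3.57e-05 and 2.24e-05). Ago2 (Eif2c2) was higher by 0.50 in Tet3-null and 0.56 in wild-type embryos (limma adjusted p of 0.0271 and 0.0162). Ago1 and Ago4 did not reach the limit for fitting. Lin28b, whose protein blocks let-7 maturation, was lower in blastocysts, with changes of -1.72 in Tet3-null and -1.34 in wild-type embryos and limma adjusted p of 9.65e-05 and 0.000357.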

How the data were processed

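Each library came with FPKM per gene, deposited by the authors. Cufflinks 2.2.0, TopHat2 2.0.10, Bowtie2 2.1.0 and mm9 are named per the submitters' processing notes. Annotation, settings and treatment of shared reads: not given in the sources used here. FPKM keeps no read totals, so precision can be judged only from steps and replicates; relative depth is the commonest ratio of values under 0.15 FPKM. Genes reaching 1 FPKM in 2 or more libraries (13549) were fitted on the log2(FPKM + 1) scale in limma 3.58.1, with a mean for each of the 4 groups (R 4.3.3; empirical Bayes, intensity trend, two-sided, Benjamini-Hochberg; 4 residual and 3.07 prior degrees of freedom), and the script was tested on simulated data. A permutation test of 2 against 2 libraries cannot reach 0.05. Alternatives were the pseudocount, the filter, the scaling, the libraries fitted, the replicate block and each library left out. Hosts come from GENCODE M21 and hairpin matches from BLAST 2.17.0 (at least 85% identity over 80% of the hairpin) against its transcripts; the build differs from mm9, so no coordinates are given. Named were all entries called between genotypes, those highest by median or by lowest FPKM, the largest changes without overlap, fixed family lists, and hosts; the Sfmbt2 and X-linked groups, Mir144, Mir451, Mir147, Mir22, Mir763, Mir3112 and Mir682 were chosen after their values were seen. Members and lists were chosen with earlier results of these data known.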

Additional observations from a re-analysis of the deposited data

Results flagged for a closer look

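For 10 entries the change between Tet3-null and wild-type embryos differed between stages by limma's test of that difference. The fitted difference on the log2(FPKM + 1) scale, blastocysts minus 2-cell embryos, was -7.72 for Mir142, -7.13 for Mir302c, -6.61 for Mir186, 5.40 for Mir1894, -5.60 for Mir467d, -8.00 for Mir690, -6.48 for Mir5134, -8.58 for Mir742, -6.66 for Mir1893 and -4.55 for Mir697. Each rests on a group listed at 0, so none is a fold change, and values that are not 0 were at most 2.29 steps except for Mir1893 in 2-cell embryos.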

How the results depend on the processing

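Counts of entries called between genotypes depended on which libraries were fitted. With the 4 libraries of the comparison alone, 1 entry was called in 2-cell embryos (4 with all libraries) and 5 in blastocysts (8 with all libraries). Among all 13549 genes, these fits called 3 in 2-cell embryos and 6 in blastocysts. With 1 library left out, counts were 3 to 11 in 2-cell embryos (8 without Tet3-null 2-cell replicate 1 and 11 without replicate 2), 9 to 11 in blastocysts and 10 to 18 for the difference between stages (18 without Tet3-null 2-cell replicate 1, against 10). By stage they were 38 to 41 in Tet3-null and 33 to 41 in wild-type embryos; a lone library is assumed to vary like the other groups. The replicate block gave 3, 8, 9, 38 and 32 calls for 2-cell genotype, blastocyst genotype, their difference, Tet3-null stage and wild-type stage. Among all 13549 genes it called 31, 9, 13, 9883 and 9919 in the same order. Replicate numbers did not pair the libraries (correlations of deviations from -0.08 to 0.02), and the block was therefore no main design. Of single named results, 159 genotype values under the alternatives kept their side of the threshold and 21 lost it; for stage, 466 kept it, 9 lost it, 2 gained it and 3 turned round. The 3 are values not called in wild-type embryos: Mir3063 was -0.47 with quantile normalization and ran from -0.0387 (without wild-type blastocyst replicate 2) to 0.373 with 1 library left out. Mir1982 ran from -1.55 to 0.12 (without wild-type 2-cell replicate 2). Folds between stages with 1 library left out, tried after seeing the data, moved by over 1.5 times for Mir682 and Mir686, and by less for Mir703, Mir692-1 and the 4 mRNAs beside them. The cause was not tested. Quantile normalization set the all-gene median in 2-cell embryos at 0.00, against -0.17 as deposited. Mir1956, Mir690 in blastocysts, and Mir697 lost their calls most often, and 1 to 3 steps limit what any entry can show.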
